A study of Mus musculus with 11 samples.

Results

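The smallest H3K4me3 regions of the mouse mammary gland in early pregnancy are described here. Members were chosen by width: every autosomal region (chromosomes 1 to 19) whose width, end minus start, equals the smallest in the deposited list, 501 bp. There were 1551 such regions among 14296 autosomal ones, or 10.8% (exact 95% interval 10.3 to 11.4). A further 57 regions of that width on the X chromosome were left out by the rule. The study profiled the mammary gland of wild-type mice on the mixed background 129SV::FVB/N::C57BL/6, as whole tissue or, in some samples not used here, as isolated epithelial cells, and the labels name no treatment, transgene or deletion in any group. Of its 11 samples, 2 were used: H3K4me3 ChIP-seq and STAT5A ChIP-seq of tissue at day 6 of pregnancy (P6), with 1 library each. The number of animals per library was not given in the sources used here. Whole tissue holds epithelium, fat, vessels and immune cells together, so a region stands for the mark in any of them.

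H3K4me3 is trimethylation of lysine 4 on histone H3. It is written by the SET1 and MLL methyltransferase complexes and sits on the nucleosomes around transcription start sites, where it marks promoters that are active or ready for use. Wide, strong domains are known at highly transcribed and cell identity genes, while small, weak signals are known at little-used promoters and at some enhancers. STAT5A is the transcription factor that takes the prolactin signal to the nucleus of the mammary epithelium, and the title of the series concerns the order in which STAT5 and this mark arrive at genes of the gland. Which genes lie beside the regions was not analysed here, because the coordinates are in mm9 and no gene map of that build was used. For the same reason no sequence is shown.

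The minimum width stood apart from all other widths. No region was 502 to 625 bp wide, and the next width present was 626 bp, with 72 regions. Just outside the rule, the widths of 627, 628, 629 and 630 bp held 71, 59, 59 and 51 regions. The gap between the smallest width and the next was 125 bp. The same step recurred above it: of the 1037 regions from 626 to 750 bp wide, 741 fell in the first 25 bp of that range and 28 in the last 25 bp, and 402 regions followed at 751 to 775 bp. The pattern flattened toward 1 kb. Members are thus regions at a floor of the list, and their true extent below it cannot be read from the file.

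**Figure D1:**
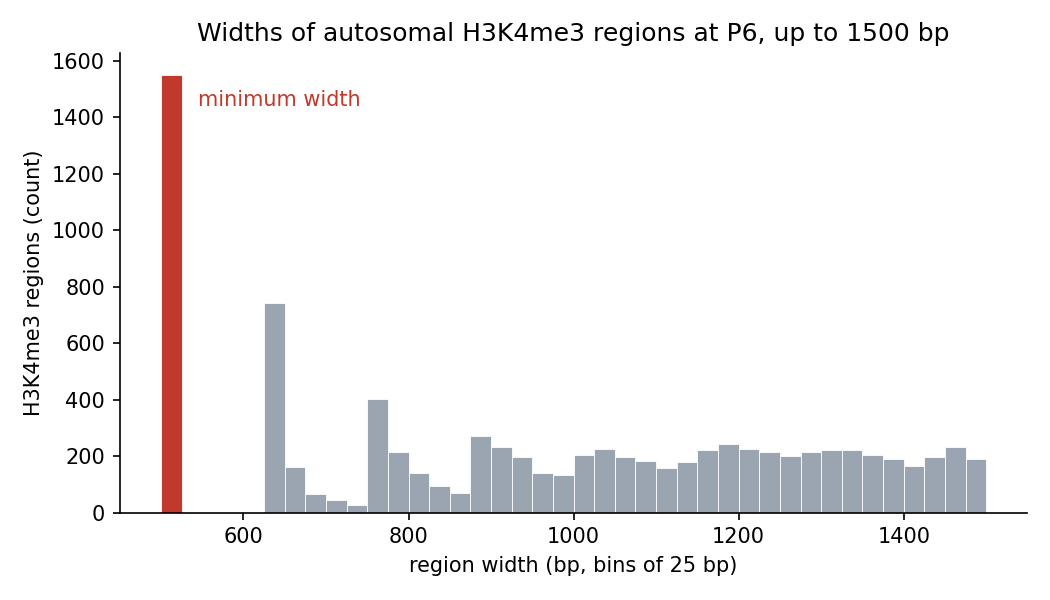
Number of autosomal H3K4me3 regions at P6 (vertical axis, count) by width (horizontal axis, bp, bins of 25 bp), with the minimum width in red. The 1551 members form 1 bar, separated from the next regions at 626 bp by an empty stretch, and smaller steps follow at 751 and 876 bp.

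Most minimum-width regions were also weak, although a few were not. Width and the authors' score come from the same library, so these scores are a description and not a finding; the sources used here do not name the scale. The members' scores had a median of 29.3, quartiles of 24.7 and 36.3, and ran from 20.2, the lowest score in the list, to 181.7. Wider regions had a median of 244 and quartiles of 126.7 and 369. Among the 1000 autosomal regions with the lowest scores 894 were members, whereas only 78 of the 12745 wider regions scored at or below the members' median. The classes met between scores of 35 and 40, where members made up 49.6% of regions (184 of 371). Above 60 there were 39 members (2.51%), and above 100 there were 4. In whole tissue a weak mark in many cells and a strong mark in few cannot be told apart.

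Just outside the rule, scores did not fall off evenly with width. The 72 regions of 626 bp had a median score of 73.6, and the 51 of 630 bp one of 55.6. Over the whole step from 626 to 750 bp the median was 47.0, with 50.6 in its first 25 bp and 42.95 in its last. In the step from 751 to 875 bp it was 93.3 in the first 25 bp and 58.8 in the last. The first part of a step also scored higher than the last in both steps from 876 to 1125 bp, and the order was the other way in the 3 steps from 1126 to 1500 bp. Members lay below all of these medians.

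The 10 members with the highest scores lay on several chromosomes. The highest score, 181.7, belonged to chr6:47622664-47623164 (mm9, counted from 1), which lay 20.9 kb from its nearest neighbour, a region of 2032 bp. Next came chr10:126817144-126817644 with a score of 134.5; its neighbour, 501 bp away, was 630 bp wide and scored less, 88.5. The regions chr19:4906228-4906728 and chr8:114153891-114154391 scored 124.6 and 101.5. The others of the 10 highest, with scores from 78.9 to 99.9, were on chromosomes 5, 11, 9, 17 (2 regions) and 2. The 2 regions on chromosome 17 were near each other, starting at 36248145 and 37165603. Among them chr11:3062045-3062545, which scored 95.8, lay 9.29 kb from a STAT5A peak with a score of 55.4. Of these 10 members 1 carried a STAT5A peak, chr9:22215808-22216308, with an H3K4me3 score of 90.1 and a STAT5A score of 4.8.

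STAT5A peaks were found on few minimum-width regions. Of the 1551 members 53 shared at least 1 bp with a STAT5A peak (3.42%, exact 95% interval 2.57 to 4.45), against 12.0% of all autosomal regions. Among wider regions 1656 of 12745 did (13.0%, interval 12.4 to 13.6), a difference of 9.58 percentage points (interval 8.40 to 10.6). The members carried 54 STAT5A peaks, since 1 of them held a pair, which was 3.02% of the 1787 autosomal peaks lying on any region. STAT5A peaks come from a separate library and were not used by the rule. With 1 library per mark there is no replicate test; the intervals cover counting error over regions only, and neighbouring regions are not independent.

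The share with STAT5A rose in small steps from the minimum width upward. Regions of 626 to 750 bp held a peak in 5.21% of cases (54 of 1037, interval 3.94 to 6.74), which was 1.79 points above the members (interval of the difference 0.22 to 3.51). Those of 751 to 875 bp did in 6.62% (interval 5.10 to 8.42). At 1376 to 1500 bp the share was 13.3%, and above 2 kb it was 20.01% (555 of 2774). The members thus stood at the low end of a gradient over width.

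**Figure D2:**
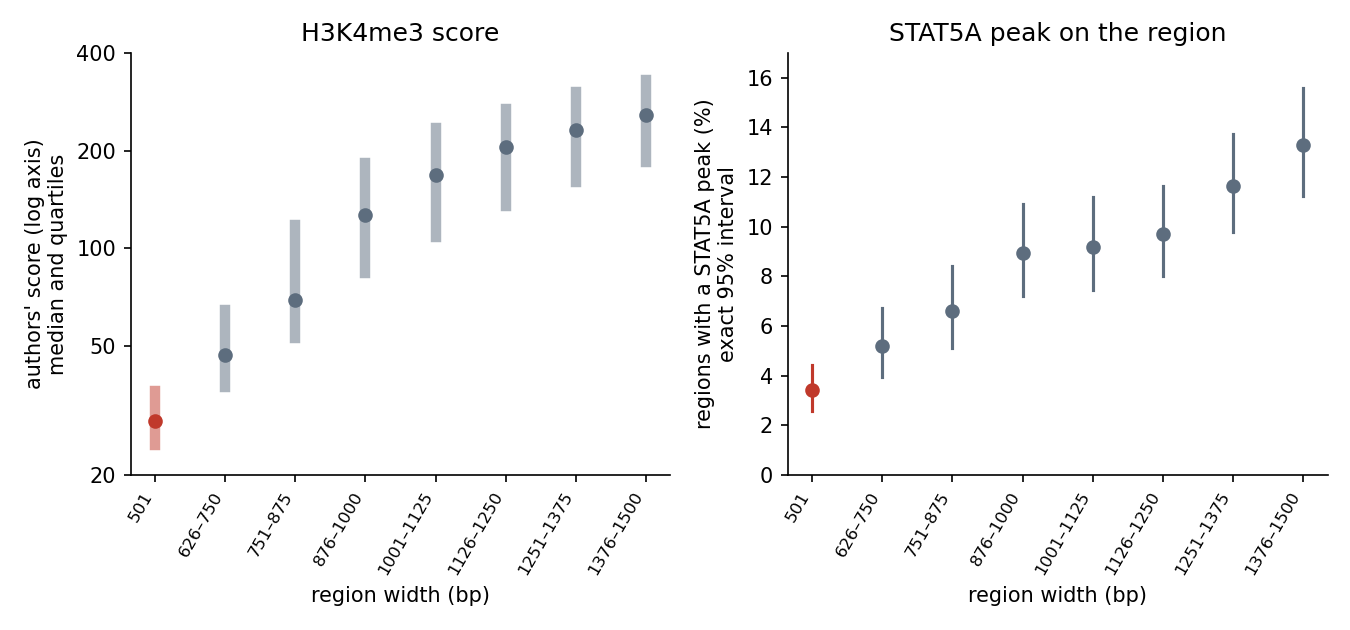
Left, the authors' H3K4me3 score (log axis; point, median; bar, quartiles) and right, the percentage of regions sharing at least 1 bp with a STAT5A peak (point; line, exact 95% interval), both by region width in steps of 125 bp, with the minimum width in red. Medians climb from 29.3 to 258 and shares from 3.42% to 13.3% across the 8 width groups.

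The contrast was smaller when equal lengths of sequence were compared. In a window of 501 bp at the centre of every region, 3.42% of members and 6.37% of wider regions (812 of 12745, interval 5.95 to 6.81) met a peak, a difference of 2.95 points in place of 9.58. The centre windows of regions above 2 kb did so in 5.30% of cases (interval 4.50 to 6.20), and those of regions of 1 to 2 kb in 7.10%. Per kb of covered sequence, members held 0.0695 STAT5A peaks and wider regions 0.0863, counting every peak that shared at least 1 bp. Peaks centred outside a region are counted too, which raises the value more for narrow regions than for wide ones. Both comparisons left the members lower, and with equal windows by much less than the whole-region shares.

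Within the same range of H3K4me3 scores, the intervals of members and wider regions overlapped. Between the quartiles of the members' scores, 24.7 to 36.3, STAT5A lay on 25 of 801 members (3.12%, interval 2.03 to 4.57) and on 13 of 255 wider regions (5.10%, interval 2.74 to 8.56). With centre windows of equal width the latter share was 4.31% (11 of 255, interval 2.17 to 7.59). The differences were 1.98 points (interval -0.57 to 5.55) and 1.19 points (interval -1.19 to 4.59), so that with 255 wider regions neither direction was resolved. Among the members themselves the share did not follow the score: from the lowest to the highest of 4 score groups it was 3.51%, 2.60%, 3.60% and 3.97%, each inside the interval of the others.

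STAT5A peaks were nonetheless denser close to the members than 2 to 5 kb away. Within 500 bp of a member's centre there were 72 STAT5A peak centres, or 46.4 per kb per 1000 members. That window is wider than the 501 bp of a member, and 38 members had a peak centre inside them. At 2 to 5 kb on either side there were 82, or 8.81 per kb per 1000 members, so that the inner density was 5.27 times the outer. For regions from 626 bp to 1 kb this ratio was 9.73, for those of 1 to 2 kb 12.6, and for those above 2 kb 5.87. In the widest class the outer density was itself higher, at 13.4 per kb per 1000 regions. Around members the density fell to the outer level beyond about 1 kb.

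**Figure D3:**
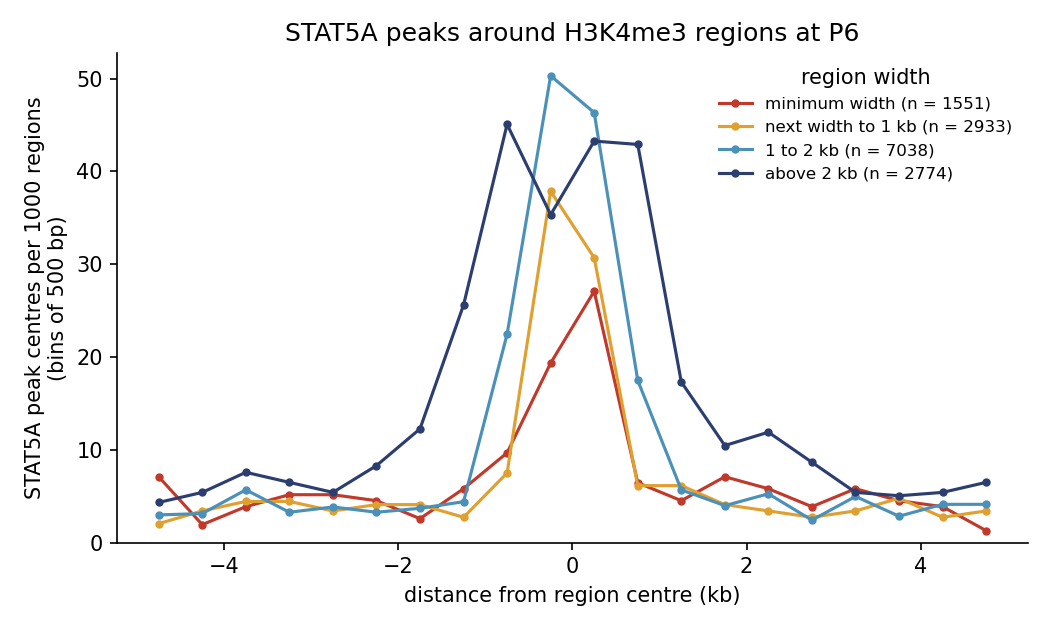
STAT5A peak centres per 1000 H3K4me3 regions (vertical axis, bins of 500 bp) against the distance from the region centre (horizontal axis, kb), for 4 width classes. Members (red) reach 19.3 and 27.1 in the central bins, below the 50.3 and 46.3 of regions of 1 to 2 kb, and stay at or below 7.09 in the bins beyond 1 kb.

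Many STAT5A peaks near members lay at or past the edge of the region. The peak centre fell inside the member in 38 of the 53 cases, and in the other 15 only the end of the peak reached it. The distance between the centres of peak and region had a median of 158 bp and quartiles of 106 and 278 bp, where 358 bp is the most that any overlap allows. A further 51 members (3.29%, interval 2.46 to 4.30) had no peak on them but 1 within 1 kb, against 2.02% of wider regions (interval 1.78 to 2.28). Among regions with no other H3K4me3 region within 10 kb these shares were 3.19% (33 of 1035) and 1.82%, with intervals of 2.20 to 4.45 and 1.56 to 2.11. The pooled wider regions thus had the lower share just beside the region. This did not hold for every width. Regions above 2 kb stood at 2.74% (interval 2.16 to 3.42), which overlaps the members' interval. Those from 626 bp to 1 kb and of 1 to 2 kb were lower, at 1.88% and 1.79%. A region with a peak on it cannot count here. Of regions above 2 kb 20.01% held one, against 3.42% of members, which lowers the share of wide regions more. A flank begins nearer to the centre where the region is narrow, so the flanks of members and wider regions do not cover the same distances.

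Farther out the classes were closer. A peak lay within 10 kb of 266 members (17.2%, interval 15.3 to 19.1), against 24.1% of all autosomal regions. The difference from wider regions, 7.84 points, was made at the region itself: the nearest peak was 1 to 10 kb away for 10.4% of members and 9.98% of wider regions. Over 100 kb from any STAT5A peak lay 34.0% of members (interval 31.7 to 36.5) and 29.7% of wider regions (interval 28.9 to 30.5). Regions from 626 bp to 1 kb were like the members in this, at 34.3% (interval 32.6 to 36.0), and those above 2 kb stood at 23.1%. The median distance to a peak was 54.7 kb for members (interval 48.1 to 60.8), 53.2 kb for regions from 626 bp to 1 kb and 27.7 kb for those above 2 kb. Members and the next wider class had overlapping intervals. Within 100 kb of the centre, both members and wider regions had a median of 1 STAT5A peak.

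The STAT5A peaks on members were of ordinary strength. Their scores are again the authors' own, and where several peaks overlapped a region only the highest was taken. The median was 5.9 on members (interval 5.3 to 7.3) and 5.4 on wider regions (interval 5.3 to 5.4). All 6948 peaks on no region had a median of 6.2. Scores of at least 8.1, the top 25% of the STAT5A list, occurred on 10 of the 53 members (18.9%, interval 9.44 to 32.0), on 13.6% of the wider regions with a peak (interval 12.0 to 15.3) and among 28.1% of peaks on no region (interval 27.0 to 29.1). The members' interval overlaps both of the others.

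Of the 10 members with the strongest STAT5A peaks, 6 had no other H3K4me3 region within 10 kb, as did 1035 of all 1551 members. At the top was chr18:3009460-3009960, with a STAT5A score of 21.8 and an H3K4me3 score of 47; its nearest neighbour was 271 kb away, and the peak centre was 106 bp from its own. Next came chr19:61339969-61340469, with a STAT5A score of 16.6, an H3K4me3 score of 24.1 and a neighbour 35.8 kb away. These 2 regions are the first of chromosome 18 and the last of chromosome 19 in the list. The member chr16:21778914-21779414 followed with a STAT5A score of 16.4, but there the centres were 312 bp apart and only the edge of the peak touched the region.

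The other 7 had STAT5A scores from 8.1 to 12.9. The member chr1:181777947-181778447 scored 44.1 for H3K4me3 and 12.9 for STAT5A, and chr3:131067704-131068204 scored 23.4 and 12.9. In chr12:70675276-70675776, whose H3K4me3 score of 62.6 was the highest of the 10, the centres were 57 bp apart. Peak and region shared nearly the same centre, 1 bp apart, in chr7:51660981-51661481 and chr6:31171555-31172055. The latter lay 551 bp from a region of 1155 bp with a score of 189. Across these 10 members the H3K4me3 score ran from 23.4 to 62.6, so a strong STAT5A peak was found on members both below and above the members' median score.

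Minimum-width regions lay beside another H3K4me3 region more often than wider ones did. Spacing comes from the same list as the rule and is a description. Within 1 kb, edge to edge, 115 members had a neighbour (7.41%, interval 6.16 to 8.83), against 3.28% of all autosomal regions and 2.78% of wider ones. Within 10 kb, 516 members did (33.3%, interval 30.9 to 35.7), against 26.4% of all regions and 25.6% of wider ones. The next class, from 626 bp to 1 kb, was close to the members at 10 kb, with 31.4% (interval 29.7 to 33.1) and a median distance to the nearest region of 21.03 kb against 20.7 kb. At 1 kb that class stood at 4.13% (interval 3.43 to 4.91), below the members. Over all wider regions, the members' excess lay at short range: it was 4.64 points at 1 kb, 8.21 at 2 kb and 9.11 at 5 kb, and it fell to 2.88 at 50 kb and 0.016 at 100 kb. No pair of autosomal regions was closer than 501 bp, so a floor in the list limits spacing as well as width.

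**Figure D4:**
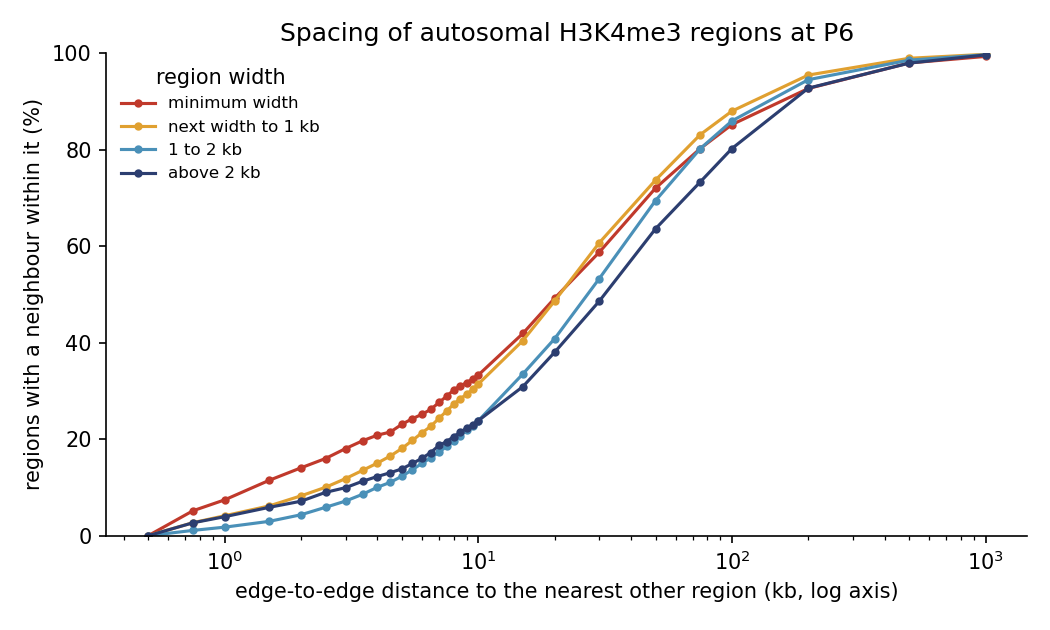
Percentage of autosomal H3K4me3 regions (vertical axis) that have another region within a given edge-to-edge distance (horizontal axis, kb, log axis), by width class. Members (red) lie above the other classes up to 10 kb, at 7.41% within 1 kb and 33.3% within 10 kb, and meet the class of 626 bp to 1 kb near 20 kb.

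Close neighbours of members had a median width near that of the list, but were more often above 2 kb wide. Among the 115 members with a neighbour within 1 kb, the neighbour had a median width of 1464 bp and a median score of 182.5, against 1323 bp and 216 over all autosomal regions. It scored higher than the member in 102 cases (88.7%). Members made up 894 of the 1000 lowest-scoring regions, so most regions score above a member anyway. The share therefore does not set close neighbours apart. The neighbour was above 2 kb wide in 40 cases (34.8%, interval 26.1 to 44.2), compared with 69 of 354 (19.5%, interval 15.5 to 24.0) for the neighbours of wider regions. In the whole list, 2774 of 14296 autosomal regions were above 2 kb. In 21 of the 115 cases (18.3%, interval 11.7 to 26.5) the neighbour was another member, while members made up 10.8% of all autosomal regions. For wider regions with a neighbour within 1 kb, it was a member in 95 of 354 cases (26.8%, interval 22.3 to 31.8). Seen from the other side, 1.44% of regions above 2 kb had a member within 1 kb (40 of 2774, interval 1.03 to 1.96), against 0.50% of those of 1 to 2 kb (interval 0.35 to 0.69). For regions from 626 bp to 1 kb the share was 0.68% (interval 0.42 to 1.05), which overlaps that of the widest class.

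Where a member and another region stood close, STAT5A was more often on the neighbour. Within 10 kb, 60 of the 516 neighbours held a STAT5A peak (11.6%, interval 8.99 to 14.7), a share near the 12.0% of all regions, whereas 14 of the 516 members did (2.71%). Within 1 kb the numbers were 9 neighbours (7.83%, interval 3.64 to 14.3) and 3 members (2.61%) of 115, which are small counts. The neighbours were also wider than the members, with a median of 1303.5 bp within 10 kb and 1464 bp within 1 kb. Windows of equal width were not compared here. Members with no region within 10 kb held STAT5A in 3.77% of cases (39 of 1035, interval 2.69 to 5.12), so the low share was found in isolated members too.

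Runs of minimum-width regions were rare and short. Members at most 10 kb apart formed 38 pairs and 7 runs of 3, with 97 members in all (6.25%), and no run was longer. The most compact run, chr5:114246899-114250489, placed 3 members with scores of 31.4, 26.0 and 44.4 within 3.59 kb and had no wider region between them. Others were chr4:115318820-115330293, chr15:50708905-50714196 and 2 runs each on chromosomes 10 and 7. In 5 of the 7 no wider region lay between the members. One run carried STAT5A: in chr7:38964941-38976778 the first member held a peak with a score of 11.1, and a peak with a score of 17.3 lay 486 bp from the second.

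At the other extreme, 230 members (14.8%, interval 13.1 to 16.7) had no other region within 100 kb, the same share as wider regions at 14.8%. For 145 members (9.35%, interval 7.95 to 10.9) the nearest STAT5A peak was also over 100 kb away, against 7.56% of wider regions (interval 7.11 to 8.04). The most isolated member, chr1:103798681-103799181 with a score of 45.4, was 3.45 Mb from any other region and 1.72 Mb from any STAT5A peak. The next, chr14:109313005-109313505 with a score of 48.8, was 3.01 Mb from a region. The members at 103460666 on chromosome 6, 86563897 on chromosome 18 and 6240399 on chromosome 14 followed, with scores of 24.9, 22.3 and 21.0 and distances of 1.98, 1.44 and 1.35 Mb. None of these 5 held a STAT5A peak. Only 3.42% of all members and 12.0% of all autosomal regions held one, so 5 members are too few to read. The first pair scored well above the members' median of 29.3 and the other 3 below it.

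Minimum-width regions were a similar fraction of all regions on every autosome. Their share ran from 8.76% on chromosome 8 (66 of 753, interval 6.84 to 11.02) to 12.2% on chromosome 6 (91 of 743, interval 9.98 to 14.8). The interval of each of the 19 chromosomes held the overall 10.8%. Members per Mb followed the density of all regions: chromosome 11, with 10.1 regions per Mb, had 1.08 members per Mb, and chromosome 14, with 3.90 regions per Mb, had 0.46. Over the 19 autosomes the rank correlation of both densities was 0.90; both share the chromosome's length and library. The share of members tended the other way, with a rank correlation of -0.60 with region density. Along the chromosomes, cut into 5 equal parts, members made up between 10.2% and 11.2% of regions. Each chromosome had 1 to 6 members with a STAT5A peak, too few to rank.

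**Figure D5:**
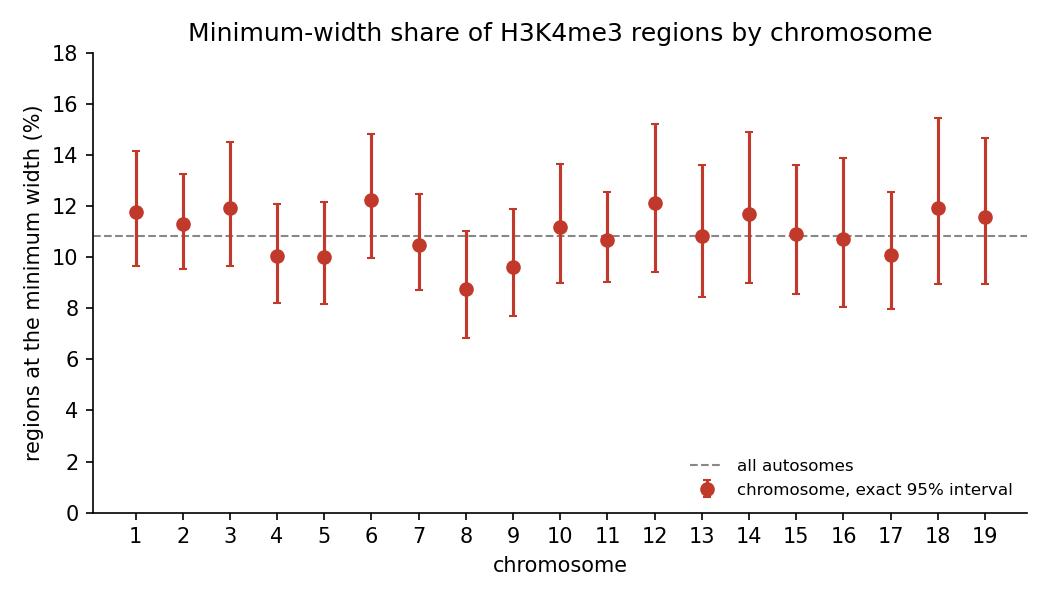
Percentage of H3K4me3 regions at the minimum width (vertical axis; point; line, exact 95% interval) for each autosome (horizontal axis), with the value of all autosomes, 10.8%, as a dashed line. The lowest share is on chromosome 8, at 8.76%, the highest on chromosome 6, at 12.2%, and the dashed line crosses every interval.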

How the data were processed

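H3K4me3 and STAT5A ChIP-seq of P6 tissue were used, 1 library each. Per the labels' protocols, tissue was crosslinked with formaldehyde and chromatin was sonicated to 200 to 300 bp. Per the submitters' processing notes, CASAVA, Bowtie, HOMER and mm9 were used; versions, peak settings and any input were not given in the sources used here. Both deposited lists give positions and a score per region or peak, the authors' own value, on a scale not named there; they hold no read counts, so the depth is unknown. The RNA table of parturition has no coordinates and was not used here; nor were the other 8 samples.

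Python 3.11.15, pandas 2.3.3 and scipy 1.17.1 computed overlaps (at least 1 bp), edge-to-edge distances, exact (Clopper-Pearson) intervals, Newcombe intervals for differences and order-statistic intervals for medians, all at 95%. The functions were tested on simulated data with planted distances. Regions named are the 10 members with the highest score, the 10 with the highest STAT5A score on them, the 5 farthest from any region and the longest runs. Members and measures were chosen with earlier results of these data known. The planned sequence and expression descriptions were not run, because no mm9 genome or gene map was used.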

Additional observations from a re-analysis of the deposited data

How the results depend on the processing

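Of 28 alternatives for 5 results, 12 stayed within the counting interval of the value reported, 16 moved outside it and 0 reversed the direction. Only the differences between members and wider regions have a direction that could reverse. Within the same range of H3K4me3 scores the difference did not resolve it, with intervals of -0.57 to 5.55 for whole regions and -1.19 to 4.59 for equal windows. The share of members with STAT5A, 3.42%, was 2.45% when the peak centre, and also when at least 50% of the peak, had to lie inside. It was 6.51% with a peak centre within 1 kb, 1.68% with STAT5A peaks at or above the median score and 0.64% with those in the top 25%. The difference from wider regions, 9.58 points, was 2.95 with equal centre windows, 8.36 with a centre within 1 kb, 3.11 and 1.12 with the same higher-scoring STAT5A peaks, 3.47 against wider regions up to 1 kb and 1.98 within the same range of H3K4me3 scores. With equal windows and that score range together, an alternative chosen after seeing the data, it was 1.19. The share of members with a neighbour within 10 kb, 33.3%, was 23.1% within 5 kb and 49.2% within 20 kb. The median distance to STAT5A, 54.7 kb, was 128 kb with the higher-scoring peaks and 67.3 kb for members with no region within 10 kb. No paired analysis was possible because each group used holds 1 library and no result comes from a test. The unknown depth limits which weak regions entered the list, and the lowest score, 20.2, is its floor.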
